A study of Mus musculus with 12 samples.

Results

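The genes described here encode 10 proteins of the cell's skeleton, namely the keratins Krt8, Krt18, Krt19 and Krt23, the actins Actb and Actg1, the tubulins Tubb2a, Tubb6 and Tuba1c, and the intermediate filament protein vimentin (Vim). They were taken by name, and all 10 were found among the 55414 gene rows of the deposited counts. RNAseq was performed on whole livers of 12 female C57Bl/6J mice, which the study's methods put at 8 to 12 weeks of age, with 3 mice in each of 4 groups. Every mouse received an i.p. injection, a further one 6 h later, and the liver was collected 2 h after that, 8 h from the start. NaCl/PBS mice were given 0.9% saline followed by PBS. NaCl/DEX mice were given the same saline followed by 10 mg/kg dexamethasone (DEX), a synthetic glucocorticoid. FeSO4/PBS and FeSO4/DEX mice were given 300 mg/kg FeSO4 in place of saline, a dose that causes lethal shock in this model, followed by PBS or by DEX. The design asks how acute iron overload changes the liver transcriptome and whether the liver still responds to DEX afterwards.

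The cytoskeleton of an epithelial cell is built from intermediate filaments, actin filaments and microtubules. Hepatocytes make their intermediate filaments from keratin 8 and keratin 18, which pair with each other, while bile duct cells add keratins 7 and 19, and vimentin belongs to cells of mesenchymal and blood origin. Keratins 8 and 18 are known as stress proteins of the liver, which rise in many kinds of liver injury and can aggregate in hepatocytes with the autophagy receptor p62 as Mallory-Denk bodies. Actin genes are known targets of the transcription factor SRF and its actin-sensing coactivators MRTF-A and MRTF-B, and tubulin mRNAs are known to be degraded when free tubulin is abundant.

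Each library held between 16335651 and 23827340 reads counted on genes, with a median of 19602514. Normalized counts are counts brought to a common library size with the TMM factors of edgeR. After a filter on low counts 13857 genes were tested in 1 edgeR model of the 4 groups, and edgeR FDR stands for the Benjamini-Hochberg adjusted p. A gene was called at an FDR of 0.05 or less, and LFC is the log2 fold change. The 10 genes of interest all passed the filter. Summed over the library, 9 hepatocyte markers reached between 130224 and 152517 CPM (counts scaled to a common total), while those of pancreas and skeletal muscle stayed at or below 1.35 CPM. Scaling by library size alone, without TMM, moved the median LFC of all tested genes from -0.02 to -0.34 for FeSO4/PBS against NaCl/PBS. It moved that median to -0.18 for both NaCl/DEX against NaCl/PBS and FeSO4/DEX against NaCl/DEX.

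The start regions of 5 of these genes are shown, since Krt8, Krt18, Actg1 and Tubb2a were among the genes that rose most and Vim was the gene that fell. Each window holds 250 bases before and 50 after the RefSeq transcription start, read 5′ to 3′ on the gene's strand (RefSeq, GRCm38.p6). Capitals mark matches on either strand. The motifs searched were TATAAA, known as the TATA box, and GGGCGG, known as the GC box. The others were CCAAT, the CArG box bound by SRF, and the AP-1 site spelled TGANTCA. The cAMP response element was spelled TGACGTCA. The antioxidant response element was spelled TGACNNNGC. RefSeq windows were searched for 7 of the 10 genes. Those of Krt19, Actb and Tubb6 were not searched, so their motifs are not known here.
Krt8, chr15:102004293-102004592, minus strand: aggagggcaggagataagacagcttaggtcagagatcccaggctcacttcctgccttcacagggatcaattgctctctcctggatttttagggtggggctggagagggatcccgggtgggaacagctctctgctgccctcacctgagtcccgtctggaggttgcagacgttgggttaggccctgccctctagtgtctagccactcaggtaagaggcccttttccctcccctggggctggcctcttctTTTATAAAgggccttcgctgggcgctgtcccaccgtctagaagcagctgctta
Krt18, chr15:102027966-102028265, plus strand: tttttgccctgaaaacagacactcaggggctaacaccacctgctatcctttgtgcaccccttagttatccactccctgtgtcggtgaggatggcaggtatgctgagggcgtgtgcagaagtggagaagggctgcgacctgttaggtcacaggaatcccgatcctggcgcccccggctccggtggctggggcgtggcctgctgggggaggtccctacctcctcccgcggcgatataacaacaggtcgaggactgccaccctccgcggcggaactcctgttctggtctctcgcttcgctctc
Actg1, chr11:120348446-120348745, minus strand: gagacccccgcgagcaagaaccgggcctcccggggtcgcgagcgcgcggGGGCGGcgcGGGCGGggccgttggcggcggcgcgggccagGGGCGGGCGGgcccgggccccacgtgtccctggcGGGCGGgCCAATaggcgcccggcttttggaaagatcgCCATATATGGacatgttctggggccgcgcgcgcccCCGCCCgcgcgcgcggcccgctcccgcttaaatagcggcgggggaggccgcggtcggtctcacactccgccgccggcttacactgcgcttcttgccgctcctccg
Tubb2a, chr13:34077959-34078258, minus strand: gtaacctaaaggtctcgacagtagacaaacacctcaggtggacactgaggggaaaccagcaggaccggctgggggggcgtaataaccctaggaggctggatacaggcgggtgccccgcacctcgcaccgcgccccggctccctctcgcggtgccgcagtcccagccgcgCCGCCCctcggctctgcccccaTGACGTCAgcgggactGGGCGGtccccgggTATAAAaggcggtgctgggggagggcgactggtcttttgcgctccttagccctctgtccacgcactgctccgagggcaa
Vim, chr2:13574061-13574360, plus strand: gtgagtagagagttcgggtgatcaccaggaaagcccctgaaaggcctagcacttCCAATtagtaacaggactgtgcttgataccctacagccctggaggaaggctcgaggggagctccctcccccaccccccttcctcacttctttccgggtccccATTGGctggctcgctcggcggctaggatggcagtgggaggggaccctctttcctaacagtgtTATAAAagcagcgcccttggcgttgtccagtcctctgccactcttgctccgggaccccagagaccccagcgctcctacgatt

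The Krt8 window held TATAAA at its bases 250 to 255, overlapped by the same motif on the other strand, and no motif was found in Krt18 or in Krt23, which is not shown. Actg1 held 6 matches to the GC box, 1 CCAAT box and, at bases 161 to 170, the CArG box, which was found in 1.63% of the 32851 RefSeq windows. Tubb2a held a TATA box, 2 GC boxes and, at bases 192 to 199, TGACGTCA, which was found in 1.79% of all windows. A TATA box and 2 CCAAT boxes were found in Vim, and Tuba1c, not shown, held a CCAAT box and an antioxidant response element. Of all windows, 13.6% held TATAAA, 35.7% the GC box, 37.4% CCAAT, 7.81% the AP-1 site and 12.4% the antioxidant response element. The AP-1 site was found in none of the 7. These are matches of letters in a window, and binding was not measured.

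To see how FeSO4 alone acted on these genes, FeSO4/PBS mice were compared with NaCl/PBS mice. Of the 10 genes, 7 rose (Krt8, Krt18, Actb, Actg1, Tubb2a, Tubb6 and Tuba1c), 1 fell (Vim), and Krt19 and Krt23 were not called. Among all tested genes, 27.2% were called higher and 27.3% lower in the same comparison. The 10 genes were chosen with earlier results of these data known, so their excess over all tested genes is no test of the set. The median LFC of the 10 genes was 1.64, and that of all tested genes -0.02. In the 8 called genes the 3 FeSO4/PBS mice lay entirely on one side of the 3 NaCl/PBS mice, 7 above and 1 below, beside 29.0% of all tested genes with the groups apart upwards and 31.0% downwards. The same 7 rises and 1 fall were called with library size alone as the scaling and with DESeq2. Together the 10 genes took 0.0623% to 0.0702% of the reads of a NaCl/PBS library and 0.188% to 0.205% of a FeSO4/PBS library.

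**Figure D1:**
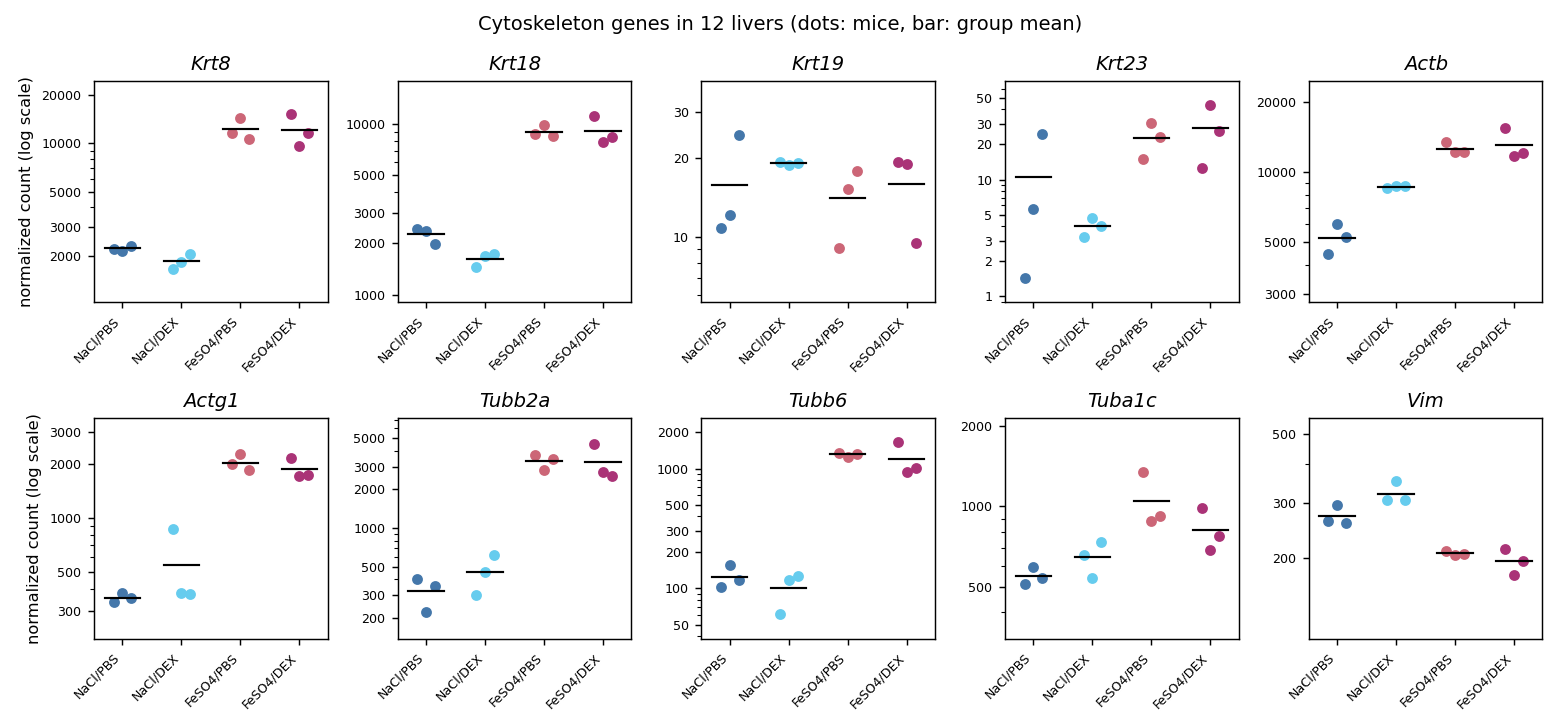
Normalized counts of the 10 genes (log scale, a separate range for each gene) in each mouse (dots) of the 4 groups, with the group mean (bar). In Krt8, Krt18, Actb, Actg1, Tubb2a and Tubb6 all 6 FeSO4 mice lie above all 6 NaCl mice, and in Vim all 6 lie below.

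The hepatocyte keratin pair rose together. Krt8 (ENSMUSG00000049382, chromosome 15 from 101905133 to 101912917 on mm39, minus strand) encodes the type II partner. The NaCl/PBS mice had 2199, 2146 and 2314 normalized counts and the FeSO4/PBS mice 11638, 14246 and 10674. The lowest FeSO4/PBS mouse was thus far above the highest NaCl/PBS mouse, and the fitted change was 5.49-fold, an LFC of 2.46 (SE 0.17, edgeR FDR 9e-08). Krt18 (ENSMUSG00000023043, chromosome 15 from 101936615 to 101940462, plus strand) encodes the type I partner and lies beside Krt8. Its values were 2421, 2378 and 1982 in NaCl/PBS mice and 8720, 9896 and 8477 in FeSO4/PBS mice. The groups did not overlap, with an LFC of 2.00 (SE 0.15, edgeR FDR 1.6e-07). Leaving out 1 of the 12 libraries at a time gave LFCs from 2.33 to 2.55 for Krt8 and from 1.91 to 2.05 for Krt18.

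The other keratins measured here stayed at low counts. Krt19 (ENSMUSG00000020911, chromosome 11 from 100031636 to 100039491, minus strand), the bile duct and progenitor keratin, had 10.8, 12.2 and 24.6 normalized counts in NaCl/PBS mice and 9.07, 15.3 and 17.9 in FeSO4/PBS mice. The groups overlapped, and the LFC was -0.18 with a 95% interval from -1.11 to 0.75 (edgeR FDR 0.75), so that a rise as large as that of Krt8 lies outside the interval. Without NaCl/PBS mouse 3 the LFC was 0.28, and without FeSO4/PBS mouse 1 it was 0.07. Krt23 (ENSMUSG00000006777, chromosome 11 from 99366873 to 99383963, minus strand), a further type I keratin, had 1.44, 5.61 and 24.6 in NaCl/PBS mice and 15.1, 30.5 and 23.0 in FeSO4/PBS mice. NaCl/PBS mouse 3 lay above 2 of the 3 FeSO4/PBS mice, while the other NaCl/PBS mice lay below all of them. The LFC of Krt23 was 1.13 (SE 0.69, edgeR FDR 0.18) with all mice and 2.73 (edgeR FDR 0.0065) without NaCl/PBS mouse 3.

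Both cytoplasmic actins rose, and Actg1 by the larger factor. Actb (ENSMUSG00000029580, chromosome 5 from 142888870 to 142892509, minus strand), which encodes beta-actin, had 4426, 5976 and 5239 normalized counts in NaCl/PBS mice and 13452, 12219 and 12170 in FeSO4/PBS mice, which gave an LFC of 1.27 (SE 0.14, edgeR FDR 3.9e-06). Actg1 (ENSMUSG00000062825, chromosome 11 from 120236512 to 120239617, minus strand), which encodes gamma-actin and whose window above holds the CArG box, had 339, 381 and 355 in NaCl/PBS mice and 1980, 2251 and 1835 in FeSO4/PBS mice. Its LFC was 2.50 (SE 0.26, edgeR FDR 3.1e-06). In neither gene did the groups overlap. Actin mRNAs are nearly identical in their coding parts and have processed pseudogenes, so that reads matching several copies may be missing from the counts. The levels of both actin genes, and the ratio between them, are uncertain.

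Among the tubulins, the beta isotypes Tubb2a and Tubb6 showed the largest fold changes of the 10 genes. Tubb2a (ENSMUSG00000058672, chromosome 13 from 34257549 to 34261998, minus strand) had 401, 222 and 355 normalized counts in NaCl/PBS mice and 3711, 2820 and 3451 in FeSO4/PBS mice, a fitted change of 10.2-fold (LFC 3.35, SE 0.30, edgeR FDR 7.9e-07). Tubb6 (ENSMUSG00000001473, chromosome 18 from 67523585 to 67536773, plus strand) had 103, 157 and 117 in NaCl/PBS mice and 1361, 1249 and 1335 in FeSO4/PBS mice, a change of 10.5-fold (LFC 3.39, SE 0.26, edgeR FDR 2.3e-07). Tuba1c (ENSMUSG00000043091, chromosome 15 from 98927748 to 98936266, plus strand), an alpha isotype, changed less, from 511, 594 and 537 to 1346, 884 and 922. FeSO4/PBS mouse 1 was the highest of these, and the LFC was 0.94 (SE 0.18, edgeR FDR 0.00052), or 0.73 at the lowest with 1 library left out.

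Exons of Tubb2a and Tubb6 overlap protein-coding genes on the other strand, Bphl over 2098 bases and Afg3l2 over 1012 bases. The library kit marks strand, but the strand setting of the counting was not given in the sources used here. Bphl stood at 2448 ± 180 normalized counts in NaCl/PBS and at 2256 ± 269 in FeSO4/PBS mice (SD, n = 3), and its LFC was -0.12 (edgeR FDR 0.39). Afg3l2 had an LFC of 0.41 (edgeR FDR 0.018), far below that of Tubb6. Tuba1c has the close paralogs Tuba1a and Tuba1b, whose LFCs were 0.26 (edgeR FDR 0.41) and -0.63 (edgeR FDR 0.064), and Tubb2b, the close paralog of Tubb2a, had at most 5.03 normalized counts in any mouse.

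Vim (ENSMUSG00000026728, chromosome 2 from 13578738 to 13587639, plus strand) moved in the other direction. It had 263, 296 and 258 normalized counts in NaCl/PBS mice and 210, 205 and 205 in FeSO4/PBS mice. All FeSO4/PBS mice were lower, with an LFC of -0.40 (SE 0.12, edgeR FDR 0.015). This call was lost without NaCl/PBS mouse 2 (LFC -0.33, edgeR FDR 0.071) and without the filter on low counts (edgeR FDR 0.073). Markers of the cell types that make vimentin moved in different directions. Their sums are scaled by total reads without TMM factors, while the calls use them. TMM factors were 1.14 to 1.16 in NaCl/PBS and 0.90 to 0.95 in FeSO4/PBS mice. The sums thus place FeSO4/PBS mice lower against NaCl/PBS mice than TMM scaling would. In the 10 macrophage markers the summed level was 572.5 to 657 CPM in NaCl/PBS mice and 257 to 319 CPM in FeSO4/PBS mice, with 8 of the 10 called lower and 0 higher. The endothelial sum was 416 to 478 CPM against 293 to 395 CPM, with 5 of 10 markers lower and 2 higher. These ranges lie close, so on the TMM scale the endothelial groups need not be apart. For 10 lymphocyte markers the sum was 26.9 to 27.6 CPM against 10.7 to 14.8 CPM, with 2 of 8 tested markers lower and 0 higher. Most of that sum was Ptprc, with 491, 418 and 421 reads in NaCl/PBS and 146, 183 and 167 in FeSO4/PBS mice. Each other lymphocyte marker had at most 33 reads in any library, and Cd3e had 15, 16 and 16 reads against 23, 33 and 30. The neutrophil sum was higher, at 39.1 to 43.8 CPM against 7.12 to 17.8 CPM. In stellate cells and fibroblasts the sums overlapped, at 312 to 337 CPM and 246 to 372 CPM, with 2 markers higher and 2 lower. The part of these cells in the value of Vim was not tested, and in whole liver fewer cells of a type cannot be told apart from less RNA per cell.

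Markers of other cell types that carry keratins or actin in quantity were read in the same way. For 10 cholangiocyte markers, which accompany Krt19, the sum was 46.3 to 54.4 CPM in NaCl/PBS mice and 55.4 to 70.1 CPM in FeSO4/PBS mice, with 2 of 6 tested markers higher and 1 lower. Sox9 was among those higher, with 57, 63 and 35 reads in NaCl/PBS and 236, 593 and 310 reads in FeSO4/PBS mice, and Krt7 had at most 25 reads in any library. Mesothelial markers summed to 2.54 to 5.84 CPM in NaCl/PBS and 0.866 to 1.35 CPM in FeSO4/PBS mice, with 1 of 3 tested markers lower and 0 higher. NaCl/PBS mouse 3, the highest of its group for Krt19 and Krt23, had 29 reads each of Msln and Upk3b, the most of any library. NaCl/DEX mouse 3 had 13 reads of Msln and 24 of Upk3b, with 19 of Krt19 and 4 of Krt23. The part of mesothelial cells in Krt19 and Krt23 was not tested. Of the neutrophil markers, whose sums are given above, 6 of 7 tested were higher, and Ly6g, a defining marker, stayed at 3 reads or fewer in every library. The part of neutrophils in the rise of the actins was not tested.

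The order of levels changed with FeSO4 on a scale per length (RPKM), which allows only a rough comparison of genes. The length counts every annotated exon base, 2923 for Actb, 1437 for Krt18 and 1958 for Krt8. For Actg1, with 3007 bases in 2 blocks, it is nearly the whole locus. The place of Actb above or below the keratins rests on these lengths and on the uncertain actin counts. The larger LFCs of the keratins than of Actb do not depend on length. Actb stood at 90.0 ± 13.4, Krt18 at 79.4 ± 8.50 and Krt8 at 57.2 ± 2.22 in NaCl/PBS mice (SD, n = 3), and the ranges of the first 2 overlapped. Below them came Tuba1c at 10.7, Tubb2a at 6.997 and Actg1 at 6.01 RPKM, with overlapping ranges for the last 2, and then Vim at 2.89, Tubb6 at 1.67, Krt19 at 0.431 and Krt23 at 0.152 RPKM. In FeSO4/PBS mice Krt18 at 317 ± 26.6 and Krt8 at 314 ± 47.7 RPKM overlapped with each other and lay above Actb at 218 ± 12.5 RPKM (SD, n = 3). Tubb2a followed at 71.4 RPKM, ahead of Actg1 at 33.9, Tuba1c at 20.5 and Tubb6 at 17.5 RPKM, the last 2 with overlapping ranges. Vim at 2.19, Krt19 at 0.383 and Krt23 at 0.331 RPKM stayed at the bottom, and Krt19 and Krt23 overlapped.

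Within families the make-up of the mRNA changed. Of the summed RPKM of 8 beta-tubulin genes, Tubb2a made up 15.2% ± 3.27 in NaCl/PBS and 55.4% ± 2.34 in FeSO4/PBS mice (SD, n = 3), and Tubb6 made up 3.74% ± 1.17 and 13.7% ± 1.76. Tubb4b, the leading isotype of NaCl/PBS mice, went from 51.5% ± 3.01 to 22.6% ± 5.32, while its own level was 23.4 and 30.01 RPKM (LFC 0.36, edgeR FDR 0.25). Tubb5 went from 28.9% ± 1.40 to 7.81% ± 1.53. The summed beta-tubulin level was 45.6 ± 4.51 RPKM in NaCl/PBS and 129 ± 21.9 RPKM in FeSO4/PBS mice, against 28.5 ± 0.41 and 38.7 ± 8.17 RPKM for the alpha-tubulins (SD, n = 3). In the alpha family Tuba1c went from 37.4% ± 2.72 to 52.8% ± 1.64 and Tuba4a from 51.9% ± 3.47 to 40.2% ± 0.81. These shares have no test and rest on the same rough length scale, and a share can fall because another gene rose.

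**Figure D2:**
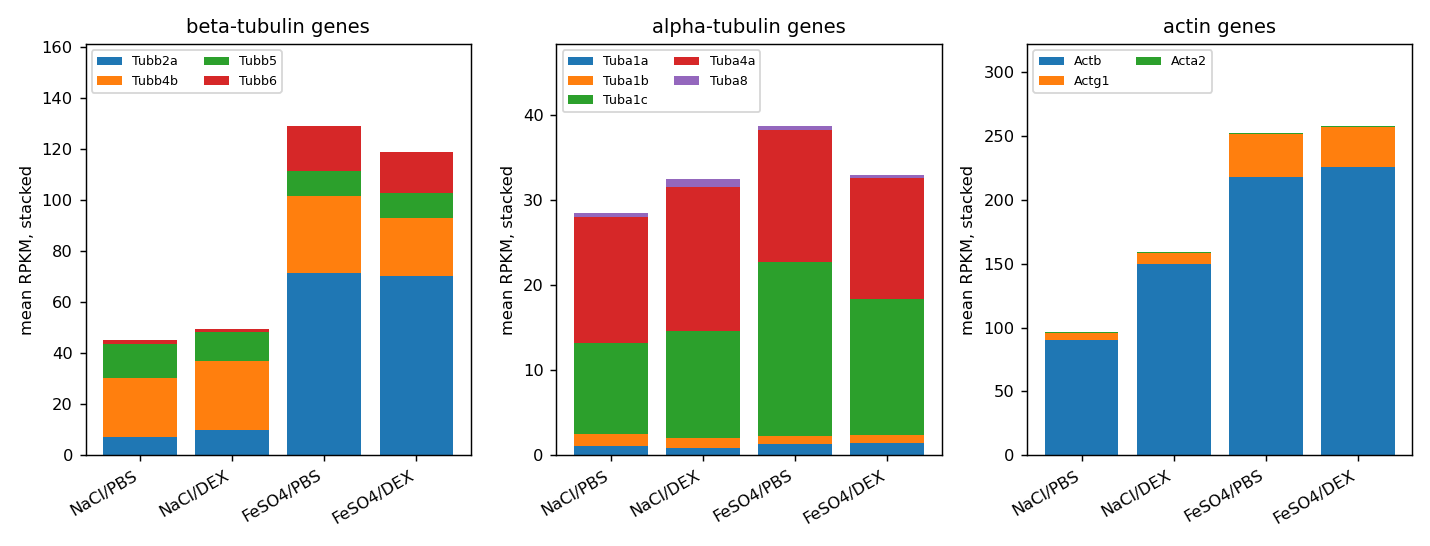
Mean RPKM (3 mice per group) of the beta-tubulin, alpha-tubulin and actin genes, stacked by gene, in the 4 groups. Genes under 0.5 RPKM in every group are left out. Tubb2a makes up the larger part of the beta-tubulin bars after FeSO4, at 71.4 RPKM in FeSO4/PBS against 6.997 RPKM in NaCl/PBS mice.

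The ratio of 2 genes within a library does not depend on scaling. The ratio of Krt8 to Krt18 reads per kilobase was 0.666, 0.662 and 0.857 in NaCl/PBS mice and 0.980, 1.06 and 0.924 in FeSO4/PBS mice. All FeSO4/PBS mice were thus higher, although NaCl/PBS mouse 3 came close to them. The ratio of Actg1 to Actb was 0.0744, 0.0619 and 0.0658 in NaCl/PBS mice and 0.143, 0.179 and 0.147 in FeSO4/PBS mice. With DEX the corresponding ranges were 0.790 to 0.868 and 0.901 to 1.01 for the keratins, and 0.0416 to 0.0992 and 0.135 to 0.143 for the actins, in NaCl/DEX and FeSO4/DEX mice. NaCl/DEX mouse 1 gave the highest NaCl value of the actin ratio, at 0.0992, and the other 2 NaCl/DEX mice the lowest, at 0.0426 and 0.0416. Neither ratio was tested.

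**Figure D3:**
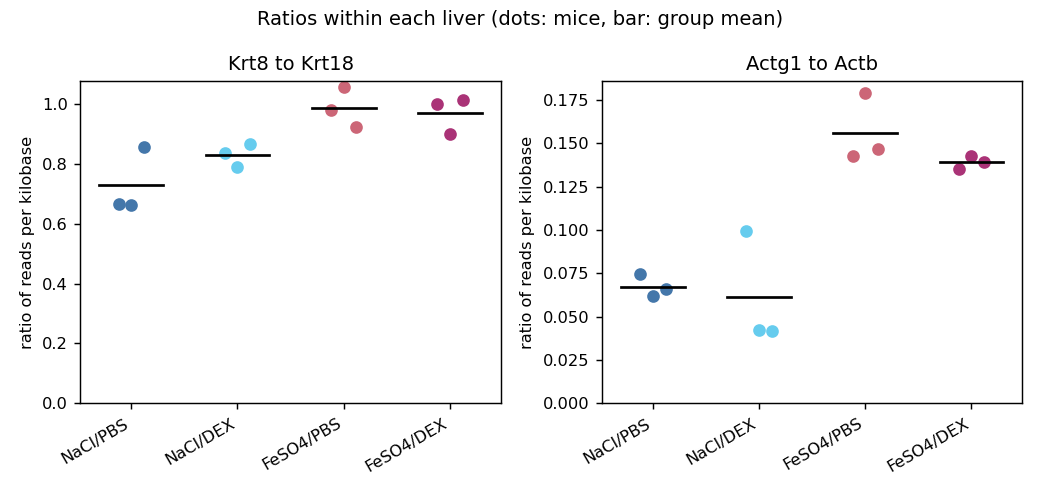
Ratio of reads per kilobase of Krt8 to Krt18 (left) and of Actg1 to Actb (right) in each mouse (dots) with the group mean (bar). The 6 FeSO4 mice lie between 0.901 and 1.06 for the keratins and between 0.135 and 0.179 for the actins, above every NaCl mouse.

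The response of these genes to DEX without iron was small. In NaCl/DEX against NaCl/PBS mice, Actb rose and Krt18 fell, and the other 8 genes were not called, beside 6.5% of all tested genes called higher and 7.15% called lower. Actb had 8512, 8721 and 8755 normalized counts in NaCl/DEX mice, each above the highest NaCl/PBS mouse at 5976, with an LFC of 0.73 (SE 0.13, edgeR FDR 0.0022) that was called with each library left out in turn. Krt18 had 1456, 1696 and 1741, each below the lowest NaCl/PBS mouse at 1982, with an LFC of -0.47 (SE 0.14, edgeR FDR 0.044). That call was lost in 9 of the 12 fits without 1 library, among them each of the 6 NaCl libraries, with FDRs up to 0.17, and with DESeq2's size factors (edgeR FDR 0.060). Krt8 had 1656, 1826 and 2058, also all below the NaCl/PBS mice, but its LFC of -0.27 had a 95% interval from -0.61 to 0.08 (edgeR FDR 0.33).

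Vim in NaCl/DEX mice was at 306, 354 and 306 normalized counts, all above the NaCl/PBS mice, with an LFC of 0.24 (edgeR FDR 0.22). Actg1 was at 868, 382 and 375, so that mouse 1 stood apart from the other 2, and its LFC of 0.60 (edgeR FDR 0.14) dropped to 0.08 without NaCl/DEX mouse 1. Krt23 was at 3.22, 4.70 and 4.03, with an LFC of -1.35 (edgeR FDR 0.34) that became 0.26 without NaCl/PBS mouse 3. Krt19 (19.3, 18.8 and 19.1), Tubb2a (301, 454 and 623), Tubb6 (61.2, 118 and 126) and Tuba1c (658, 539 and 738) overlapped with the NaCl/PBS mice and were not called.

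After FeSO4, DEX was followed by no called change in any of the 10 genes. In FeSO4/DEX against FeSO4/PBS mice edgeR called 0 of the 13857 tested genes higher and 0 lower (0% and 0%), with 444 higher and 456 lower at an unadjusted p under 0.05, and DESeq2 called 5 higher and 5 lower. None of the 10 genes was called by DESeq2 either, and in edgeR the lowest unadjusted p among them was 0.06, that of Tuba1c. The values of the groups overlapped in all 10 genes. Groups that did not overlap were rare in this comparison, at 4.45% of all tested genes upwards and 4.85% downwards, so that overlap was the rule. Krt8 had 15199, 9617 and 11516 normalized counts in FeSO4/DEX mice, Krt18 11167, 7833 and 8351, and Actb 15421, 11692 and 12065. FeSO4/DEX mouse 1 was the highest of its group in all 3, and in each of the other genes but Krt23. The 10 genes took 0.2445% of its reads, against 0.156% and 0.174% in FeSO4/DEX mice 2 and 3. The LFC of Krt8 was -0.01 with a 95% interval from -0.35 to 0.33, that of Krt18 0.01 from -0.29 to 0.32, and that of Actb 0.05 from -0.24 to 0.34.

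The other genes of the FeSO4/DEX mice were read against the same FeSO4/PBS values. Actg1 had 2142, 1715 and 1731 (LFC -0.12, 95% interval -0.64 to 0.40), Tubb2a 4521, 2739 and 2543 (-0.03, -0.60 to 0.55) and Tubb6 1659, 939 and 1018 (-0.12, -0.62 to 0.37). Tuba1c had 991, 688 and 772, with an LFC of -0.36 whose interval ran from -0.74 to 0.02 (edgeR FDR 0.76). Vim had 213, 175 and 195 (LFC -0.08, -0.36 to 0.19). Krt19 with 19.3, 19.0 and 9.51 and Krt23 with 12.6, 43.5 and 26.2 had intervals from -0.76 to 1.16 and from -1.18 to 1.64, which at these low counts leave room for changes in either direction.

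**Figure D4:**
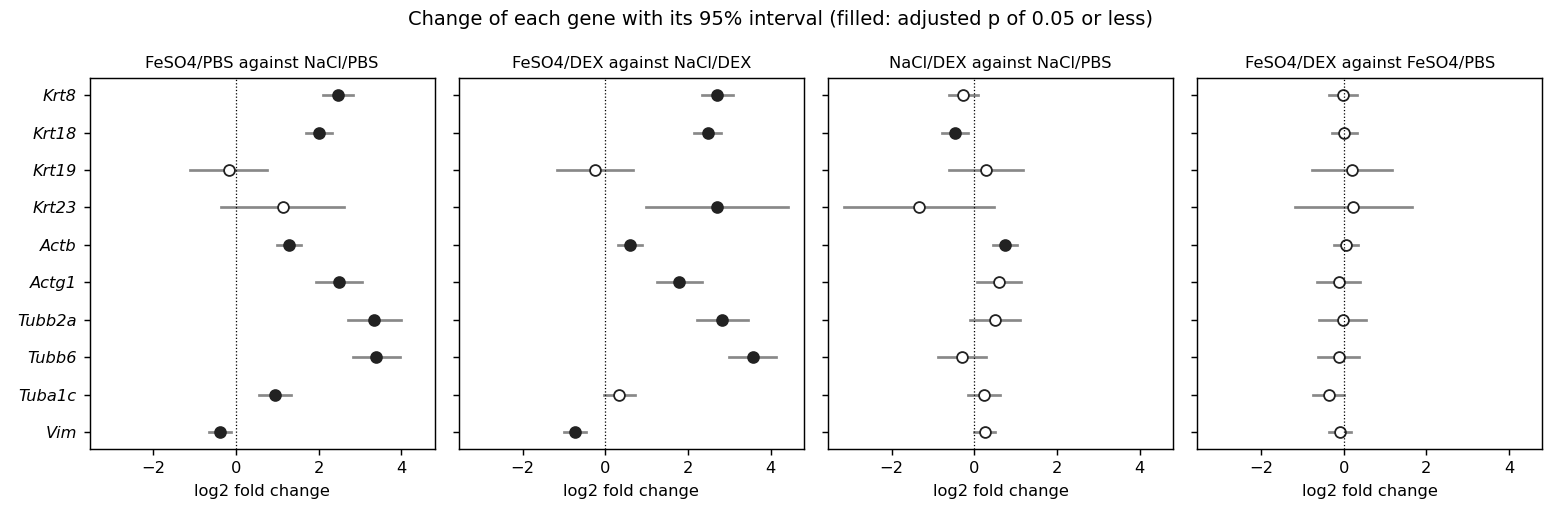
LFC of each gene (dots, with 95% intervals as lines) in the 4 comparisons. Filled dots have an edgeR FDR of 0.05 or less. The FeSO4 comparisons hold 8 filled dots each, DEX in NaCl mice holds 2 and DEX in FeSO4 mice holds 0.

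Compared within DEX-treated mice, FeSO4 again raised 7 of the genes and lowered 1, beside 22.4% of all tested genes higher and 20.9% lower. These were Krt8 (LFC 2.71), Krt18 (2.48), Krt23 (2.71), Actb (0.59), Actg1 (1.79), Tubb2a (2.83) and Tubb6 (3.56), each called by edgeR, and Vim (-0.72, edgeR FDR 0.00037) fell. Beside Vim, the macrophage sum, again without TMM factors, was 465 to 556 CPM in NaCl/DEX and 218 to 364 CPM in FeSO4/DEX mice. Of its 10 markers, 6 were called lower and 0 higher. Of the other cell types, endothelial markers were 2 higher and 2 lower, stellate and fibroblast markers 2 higher and 0 lower, lymphocyte markers 0 higher and 0 lower, and 7 of 7 tested neutrophil markers were higher. The part of these cells was not tested. For Krt23, the FeSO4/DEX mice at 12.6 to 43.5 all lay above the NaCl/DEX mice at 3.22 to 4.70 (edgeR FDR 0.014), and the call was lost without FeSO4/DEX mouse 2 (LFC 2.19, edgeR FDR 0.067). Tuba1c, which was called in the PBS mice, had an LFC of 0.34 with an interval from -0.04 to 0.73 (edgeR FDR 0.13), and its FeSO4/DEX and NaCl/DEX mice overlapped. Krt19 was not called (LFC -0.25, edgeR FDR 0.67). In Actg1 the LFC was 2.30 at the highest with 1 library left out.

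Whether the response to DEX differed between FeSO4 and NaCl mice was tested with the interaction. Of the 10 genes, only Actb was called, in the negative direction, beside 2.99% of all tested genes called positive and 3.2% negative. For Actb the DEX response was lower by an LFC of -0.68 (SE 0.19, edgeR FDR 0.048) in FeSO4 mice than in NaCl mice, 0.05 against 0.73. This call was lost in 10 of the 12 fits without 1 library, with FDRs up to 0.12, among them each NaCl/DEX and FeSO4/PBS mouse, NaCl/PBS mice 1 and 3 and FeSO4/DEX mice 2 and 3, and with scaling by library size alone (edgeR FDR 0.12). For Krt18 the difference was 0.48 (95% interval 0.05 to 0.92, edgeR FDR 0.19), for Tuba1c -0.60 (-1.14 to -0.06, edgeR FDR 0.19) and for Actg1 -0.71 (-1.46 to 0.04, edgeR FDR 0.27). None of these was called.

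The genes around these filaments were read from lists of 137 further cytoskeleton genes, of which 112 were tested. In FeSO4/PBS against NaCl/PBS mice 47 (42.0%) were higher and 15 (13.4%) lower, beside 27.2% and 27.3% of all tested genes. With library size alone 28 were higher and 28 lower. The median LFC of the lists was 0.28 with TMM factors and -0.04 with library size. That of all tested genes was -0.02 and -0.34, so the lists lay above it under both scalings. Counts of the lists below are given with both scalings. Shares of all tested genes are given with TMM factors only and are no background for the library-size counts. The lists were chosen with earlier results of these data known, so their excess over all tested genes is no test of them. Among 13 other filament and linker genes, 6 rose and 1 fell with TMM factors, and 5 rose and 3 fell with library size. Eppk1, which encodes epiplakin, a keratin-binding linker, went from 145 to 1515 mean normalized counts (LFC 3.38, SE 0.19, edgeR FDR 2.0e-08). Plec, which encodes plectin, the linker between filament systems, had an LFC of 2.02 (edgeR FDR 6.8e-08), and Nes, the neural intermediate filament nestin, an LFC of 1.23 (edgeR FDR 0.00071). Lmnb2, a nuclear lamin, fell by 0.80 on the log2 scale (edgeR FDR 0.0098).

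**Figure D5:**
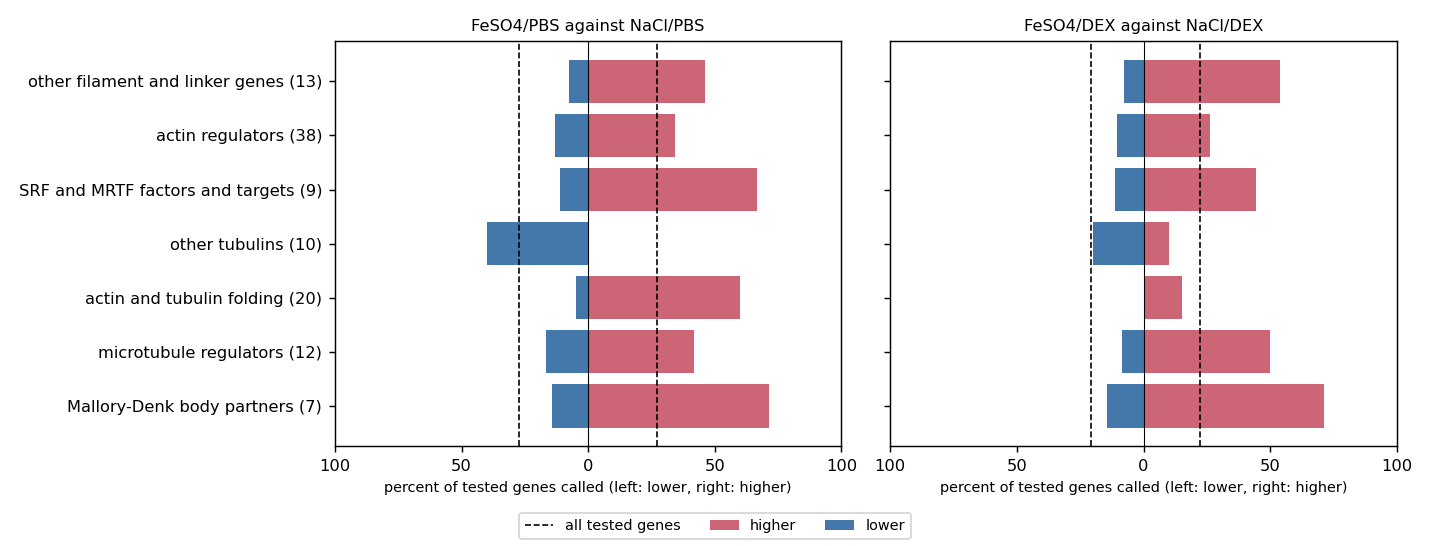
Share of the tested genes of each cytoskeleton list (number tested in brackets) called higher (right) or lower (left) after FeSO4, in PBS mice and in DEX mice. Dashed lines give the shares of all tested genes with TMM factors, 27.2% and 27.3% in PBS mice and 22.4% and 20.9% in DEX mice. Lists with fewer than 7 tested genes are left out. In PBS mice 60.0% of the folding list was higher with TMM factors, 12 of 20 genes, and 2 of 20 with library size alone.

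Of 38 actin regulators, 13 rose and 5 fell, and 8 rose and 8 fell with library size alone. Pdlim7, an adaptor of actin filaments, went from 88.0 to 463.5 mean normalized counts (LFC 2.39, edgeR FDR 4.8e-07), and the tropomyosins Tpm4 and Tpm2 had LFCs of 1.27 and 1.21 (edgeR FDR 1.1e-05 and 0.0018). Rdx (radixin, a membrane linker of actin), Actn1 (alpha-actinin-1) and Vasp (an actin polymerization factor) fell, with LFCs of -1.25, -0.81 and -0.68. Of 9 tested SRF and MRTF factors and targets, 6 rose and 1 fell, or 5 and 1 with library size alone. The target Ccn1 had an LFC of 1.66 (edgeR FDR 0.0030), and the SRF partners Elk4 and Elk1 had LFCs of 1.28 and 1.14, while Elk3, a partner known as a repressor, fell by 2.26 on the log2 scale (edgeR FDR 1.0e-06). The 4 other actins are those of muscle, and Acta2, the only one tested, had an LFC of 0.40 (edgeR FDR 0.40).

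None of the 10 other tubulins tested rose under either scaling. With TMM factors 4 fell, and 5 with library size. Tubg1, the gamma-tubulin of microtubule nucleation, and the beta isotype Tubb5 had LFCs of -0.48 (edgeR FDR 0.019) and -0.42 (edgeR FDR 0.046), and their calls were lost in 3 of 20 fits (without NaCl/PBS mouse 2 or 3 or FeSO4/PBS mouse 1) and in 10 of 20 fits. Tubd1 and Tube1, the centriolar tubulins, had the larger LFCs of -2.34 and -2.69 and are named here because of their values, outside the rule for named genes. Of 20 genes for actin and tubulin folding, 12 rose and 1 fell, but 2 rose and 4 fell with library size alone. Pfdn4 (a prefoldin subunit) and Cct2 (a subunit of the chaperonin CCT) had LFCs of 0.90 and 0.85 and were called under both scalings, and Cct3, at 0.58, was called with TMM factors and not with library size. Tbcc, a tubulin cofactor, had an LFC of -0.58, a call lost in 4 of 20 fits, those without NaCl/PBS mouse 1 or 2 or FeSO4/PBS mouse 2 or 3 (edgeR FDR up to 0.094).

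Of 12 microtubule regulators, 5 rose and 2 fell, and 3 rose and 5 fell with library size. Map7, a microtubule-binding protein, had an LFC of 1.34 (edgeR FDR 1.5e-06), Ttl, the tubulin tyrosine ligase, 0.91, and Kif5b, a kinesin heavy chain, 0.80, while Atat1, the alpha-tubulin acetyltransferase, fell by 1.49 on the log2 scale. Of 7 tested partners of keratin in Mallory-Denk bodies, 5 rose and 1 fell, or 5 and 2 with library size. Tgm2, a transglutaminase, went from 2964 to 15463 mean normalized counts (LFC 2.38, edgeR FDR 6.3e-08), Sqstm1, which encodes p62, from 5667 to 28679 (LFC 2.34, edgeR FDR 2.8e-07), and Hspb1, a small heat shock protein, had an LFC of 1.69 (edgeR FDR 0.0034). The gene that fell, Hspa1b, an inducible Hsp70 with a near-identical copy in Hspa1a, had an LFC of -2.31. Its counts were low, with a mean of 52.6 normalized counts in NaCl/PBS mice and 16, 3 and 10 reads in FeSO4/PBS mice. In this comparison it lies outside the rule for named genes. Of the 13 other keratins only Krt7 and Krt10 passed the filter, and neither was called, with LFCs of -0.85 (edgeR FDR 0.19) and -0.41 (edgeR FDR 0.49).

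In NaCl mice, DEX was followed by 8 higher (7.14%) and 4 lower (3.57%) of the 112 genes, or 6 higher and 12 lower with library size alone. With TMM factors the shares were near or under those of all tested genes, 6.5% higher and 7.15% lower, and the genes below are given as single values. Eppk1 rose to 769 mean normalized counts (LFC 2.41, edgeR FDR 1.6e-06), and the desmosome genes Dsp (desmoplakin) and Jup (plakoglobin) fell, with LFCs of -1.02 and -0.67. The coactivators Mrtfb and Mrtfa rose by LFCs of 1.09 and 1.05, Ccn2, a matricellular target, by 1.40, Hspa1b by 1.73 and Cct2 by 0.40. Cct2 was not called in 5 of 20 fits, among them library size alone and those without NaCl/PBS mouse 1 or 3 or NaCl/DEX mouse 2 or 3 (edgeR FDR up to 0.13), and Ccn2 was not called without NaCl/PBS mouse 1 (edgeR FDR 0.054). Elk3 fell by 1.46 on the log2 scale and Vasp by 0.53, and Actn4 (alpha-actinin-4) rose by 0.59, a call lost with library size alone (edgeR FDR 0.053). The call of Vasp was lost in 4 of 20 fits, those without NaCl/PBS mouse 2 or any 1 of the NaCl/DEX mice (edgeR FDR up to 0.15). After FeSO4, DEX was followed by 0 called genes of 112 in edgeR and 0 in DESeq2, and 1 of them, Tagln2 (transgelin-2, an actin-binding protein), had an unadjusted edgeR p under 0.05 (0.018, LFC -0.45, edgeR FDR 0.73).

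FeSO4/DEX mice against NaCl/DEX mice had 36 of the 112 genes higher (32.1%) and 10 lower (8.93%), beside 22.4% and 20.9% of all tested genes, or 26 and 18 with library size alone. Plec (LFC 2.05), Jup (1.45), Eppk1 (1.21), Pdlim7 (2.31), Tpm4 (1.07), Myh9 (non-muscle myosin, 1.02), Ccn1 (3.00), Elk4 (1.10), Srf (0.73), Ttl (1.55), Map7 (1.42), Hdac6 (a tubulin deacetylase, 0.59), Sqstm1 (2.20) and Tgm2 (1.92) rose under both scalings. Of the folding list only 3 genes rose with TMM factors, Pfdn4 (0.61), Tbce (a tubulin cofactor, 0.53) and Cct2 (0.37), of which Pfdn4 and Cct2 were each not called in 3 of 20 fits, library size alone and the fit without NaCl/DEX mouse 1 among them. The others were without FeSO4/DEX mouse 2 for Pfdn4 and without the filter on low counts for Cct2. Rdx (-0.90), Actn1 (-0.68), Lmnb2 (-0.95), Ckap5 (a microtubule polymerase, -0.59), Tmsb4x (thymosin beta-4, which holds free actin, -0.52) and Hspa1b (-4.30) fell. Hspa1b had only 11, 6 and 6 reads in FeSO4/DEX mice.

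The genes whose levels ran most like those of the keratins over the 12 libraries were found by Pearson's r of log2 CPM. This is a description, since the FeSO4 and NaCl mice form separate clusters that all these genes share. Krt8 and Krt18 were nearest to each other (r = 0.994, n = 12 libraries). With group means removed, r between them was 0.798. Krt8 was next followed by Slc7a1, a cationic amino acid transporter, and Ets2, a transcription factor (r = 0.992 for both), Krt18 by Itprid2 and Mcl1, a survival factor of the Bcl-2 family, and Tubb6 by Chac1, which degrades glutathione (r = 0.990), ahead of Krt8 and Krt18. For Tubb2a the nearest genes were Ch25h, Pdlim7 and Gpbp1l1, for Actb Fabp4, Ppp2r2a and Rhob, for Actg1 Senp6, Ube2d3 and Wsb2, for Tuba1c Gars1, Sptlc2 and Tollip, and for Vim Kdm5c, Cryzl1 and Sec23a, with r from 0.948 to 0.989. The nearest genes of the low Krt19 (Sipa1l1, Zfp516, Serpina7) had r of at most 0.856, and those of Krt23 (Prr15, Acot6, Camk2n2) at most 0.933.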

How the data were processed

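RNAseq was analysed from livers of 12 mice in 4 groups of 3. The authors made stranded mRNA libraries, ran FastQC on the single-end reads, used STAR 2.7.10b for mapping to mm39 and deposited raw counts per Ensembl gene, without normalization. The strand column used was not given in the sources used here. Names, positions and exon lengths came from GENCODE vM39, a later release than the authors', on the same build, and 54749 of 55414 rows were named. RPKM was computed from TMM-scaled counts and vM39 exon lengths.

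All 12 libraries entered 1 edgeR 4.0.16 quasi-likelihood model in R 4.3.3, which gives each group its own mean. Genes of low count were dropped by filterByExpr, and FDRs were adjusted over 13857 genes. Calls needed an FDR of 0.05 or less with no minimum LFC. The 95% intervals used the model's t quantile. Figures used matplotlib 3.10.9. On simulated counts with known changes the fit was tested first. DESeq2 1.42.0 and other alternatives are given with the results that depend on them. Pairs of libraries of 1 group differed by more than sampling noise, so each was counted as 1 mouse.

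The genes and lists were chosen with earlier results of these data known. Named were all 10 genes, of each list the 3 largest called rises and falls with a mean of at least 100 normalized counts in the higher group, the 3 genes most like each of the 10 (other than Gm and Rik genes), and cell type markers. A gene that this rule names is not reported here. Of 236 listed genes 235 had a row.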

Additional observations from a re-analysis of the deposited data

Results flagged for a closer look

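In 5 genes the DEX response differed between FeSO4 and NaCl mice by the test of the interaction (edgeR), given as the LFC in FeSO4 mice minus that in NaCl mice. Eppk1 had a difference of -2.18 (edgeR FDR 0.00017) and was called under each alternative fit. Mrtfa had -1.08 (edgeR FDR 0.018), not called in 1 of 19 fits, and Elk3 1.32 (edgeR FDR 0.017), not called in 2 of 19. Jup, with 0.63 (edgeR FDR 0.032), was not called in 10 of 19 fits, and Actb, with -0.68 (edgeR FDR 0.048), was the only keratin, actin, tubulin or vimentin gene of the 10 among them, and it was not called in 12 of 19 fits, 10 of them with a library left out and the others with library size alone and the replicate block. Groups of 3 mice were too small for the test of single outlying samples.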

How the results depend on the processing

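Precision is limited by the 3 mice of each group, and by depth for Krt19 and Krt23, with at most 32 reads in any library. For FeSO4 the 10 genes gave 8 calls in PBS mice and 8 in DEX mice, within 1.5 times of that count under every alternative. For DEX in NaCl mice, 2 of the 10 were called, against 1 with DESeq2's size factors, 4 without the filter on low counts (which added Actg1 and Tubb2a), 0 at a minimum LFC of 1, and 1 to 2 with a library left out. The interaction gave 1 call, against 0 with library size alone, 3 without the filter (adding Actg1 and Tuba1c), 0 at a minimum LFC of 1, and 0 to 1 with a library left out. Whether the replicate number pairs the mice is not known. Of 18 same-numbered pairs, 2 had a correlation of deviations over 0.1 (range -0.08 to 0.12). Both were of NaCl/PBS with NaCl/DEX mice (0.119 and 0.102), and groups of 3 are too small to exclude a pairing. With the replicate number as a replicate block 1 gene was called for DEX in NaCl mice and 0 for the interaction, where Krt18 (edgeR FDR 0.067) and Actb (edgeR FDR 0.083) lost their calls. Of the cytoskeleton lists, a minimum LFC of 1 left 23 of 62 calls for FeSO4 in PBS mice, 18 of 46 in DEX mice and 7 of 12 for DEX in NaCl mice. The last count was 25 with the libraries of that comparison alone and 9 to 19 with a library left out (19 without FeSO4/PBS mouse 1). For DEX after FeSO4 1 list gene was called without the filter. The interaction count of 4 became 9 with DESeq2 and 13 without the filter, and 1 to 6 with a library left out (1 without NaCl/PBS mouse 3, 2 without FeSO4/DEX mouse 3). Signs turned only in values that were not called. For DEX after FeSO4 the LFC of Krt18 was -0.0011 with DESeq2's size factors, -0.0094 with library size alone and -0.0011 with DESeq2, and the interaction of Krt19 was 0.049 with library size alone. With a library left out, LFCs ran from -0.40 to 0.28 for Krt19 after FeSO4 and from -1.88 to 0.26 for Krt23 after DEX. For DEX after FeSO4 they ran from -0.21 to 0.12 (Krt8), -0.16 to 0.10 (Krt18), -0.063 to 0.45 (Krt19), -0.27 to 0.60 (Krt23), -0.088 to 0.11 (Actb), -0.33 to 0.12 (Tubb2a) and -0.43 to 0.015 (Tubb6). For the interaction they ran from -0.55 to 0.15 (Krt19), -0.031 to 2.11 (Krt23) and -0.14 to 0.35 (Tubb6). The cause was not tested.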
